A study of Mus musculus and Homo sapiens with 9 samples.

Results

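The AP-1, EGR and NR4A immediate early genes comprised 10 genes taken by name: FOS, FOSB, JUN, JUNB, JUND and ATF3 of the AP-1 families, EGR1, EGR2 and EGR3, and NR4A1. All 10 were found by symbol among the 64252 rows of the human table and among the 43432 rows of the mouse table. RNA-seq counts were analysed in 4 libraries of J.gamma1 cells, a T cell leukemia line derived from Jurkat and known for its lack of PLC-gamma1, of which 2 carried a control hairpin (sh-NC) and 2 a hairpin against IRF2BP2 (sh-IRF2BP2). Lentiviral delivery and selection were shared by both J.gamma1 groups, and the labels do not say which hairpin was sequenced. The mouse libraries were CD3+ T cells sorted with magnetic beads from spleen, 2 of the genotype Irf2bp2 KO (Vav-iCre+/-;Irf2bp2fl/fl) and 3 control libraries, which the labels call wild type and the study calls Vav-iCre-/-;Irf2bp2fl/fl. Vav-iCre acts across the whole blood lineage, so the gene was lost from other blood cells too. Mice of these genotypes were killed for flow cytometry at 6 weeks of age, while the labels give no age, sex or collection day for the sequenced samples. Nothing states that replicates were separate cultures or animals, so that p-values measure only the spread between these libraries.

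Immediate early genes are transcribed within minutes of a signal, without new protein synthesis, and their mRNAs are short-lived. In T cells the antigen receptor acts through PLC-gamma1, calcium, Ras and MAP kinases on factors that already sit on the promoters, such as SRF with its ELK partners and CREB. FOS and JUN proteins pair into the AP-1 factor, which acts with NFAT on cytokine genes, EGR proteins are zinc finger factors downstream of the same kinases, and NR4A1 is an orphan nuclear receptor widely used as a readout of receptor signalling. The values of each library are given before any group is compared.

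The start regions of the members are shown because the letters bound by SRF, the CArG box, are a shared feature of several of them. In the 500 bases before the annotated start (GENCODE 44, hg38, both strands), 5 of the 10 human members held a CArG box, FOS, FOSB, EGR1, EGR2 and EGR3, against 2.37% of 20020 genes. EGR1 held 5 boxes and EGR2 held 2. In the sequences below, the capitals mark the motif and the lower case the neighbouring bases, read on the strand of the gene.
FOS CArG, chr14:75278504-75278533: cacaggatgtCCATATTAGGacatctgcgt
FOSB CArG, chr19:45467712-45467741: cggccgagctCCTTATATGGctaattgcgt
EGR1 CArG, chr5:138465364-138465393: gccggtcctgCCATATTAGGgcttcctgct
EGR1 CArG, chr5:138465386-138465415: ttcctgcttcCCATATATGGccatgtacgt
EGR2 CArG, chr10:62816418-62816447: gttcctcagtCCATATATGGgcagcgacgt
The FOS box lay 314 to 305 bases before the start, and the EGR2 box shown lay 71 to 62 bases before it. Neither JUN, JUNB, JUND, ATF3 nor NR4A1 held these letters in this window.

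The TATA box letters TATAAA were found in 5 of 10 human members, against 18.1% of genes, and in FOS, FOSB, JUNB and ATF3 they lay between 33 and 25 bases before the start.
FOS TATA, chr14:75278785-75278810: aaacgcttgtTATAAAagcagtggct
JUNB TATA, chr19:12791445-12791470: actagcgcggTATAAAggcgtgtggc
ATF3 TATA, chr1:212608719-212608744: gcctgagggcTATAAAaggggtgatg
The CREB letters TGACGTCA were found in FOSB and JUND (2.89% of genes), the AP-1 letters TGANTCA in 0 of 10 (9.74%), and the EGR letters GCGNGGGCG in 4 of 10 (15.3%). A CArG box can contain the TATA letters, so these searches are not independent.
For the mouse, RefSeq windows on GRCm38.p6 were matched to 8 of the 10 members and reach only 250 bases before the start. Egr1 and Egr3 had no window, and both of their human counterparts held a CArG box.
Fos TATA, chr12:85473847-85473872: acagcgcttcTATAAAggcgccagct
Egr2 CArG, chr10:67537787-67537816: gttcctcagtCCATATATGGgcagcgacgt
Within these shorter windows, TATAAA was found in 1 of 8 members (14.3% of 27025 genes with a window) and a CArG box in 1 (1.62%). The CREB letters were found in 0 (1.77%), the AP-1 letters in 0 (7.82%) and the EGR letters in 2, Fosb and Nr4a1 (5.33%). A match describes letters and not binding.

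Total counts lay between 26648204 and 31120236 in the J.gamma1 libraries. In the mouse they lay between 35032688 and 37177523 in 4 libraries and reached 16668577 in control 3. IRF2BP2 fell from 202 ± 4.04 CPM (counts scaled to library size by TMM, SD, n = 2) to 86.4 ± 10.5 (n = 2) in J.gamma1, and Irf2bp2 had 0 counts in both KO libraries. All 12 T cell markers passed the filter in each table. In J.gamma1, LYZ, CSF1R and S100A8 had 0 counts in every library, and the 6 myeloid markers summed to at most 0.814 CPM. The 5 B cell markers summed to 50.2 and 64.9 CPM in sh-NC and to 15.6 and 18.1 CPM in sh-IRF2BP2. Of these MS4A1 was at 0, CD79B stood at 3.83 to 4.42 CPM, and CD79A fell from 45.6 and 60.5 to 11.2 and 14.0 CPM (log2 fold change -2.07, adjusted p = 0.00145, edgeR). In the mouse, 11 erythroid markers summed to 681 to 2343 CPM in the controls and to 4600 to 6443 CPM in the KO. Of the 11, 6 were called higher (2.4% of genes tested were). The 12 T cell markers summed to 5248 to 5866 CPM in the controls and to 3882 to 4113 CPM in the KO. The part of these differences in the results was not tested, and in bulk samples fewer cells of a type and less RNA per cell cannot be told apart.

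In J.gamma1 cells carrying the control hairpin the immediate early genes were low apart from JUND and JUNB. Levels between genes were compared as CPM per kilobase of exon in the sh-NC libraries. JUND, the AP-1 subunit least dependent on stimulation, stood at 15.9 ± 1.79 (SD, n = 2) and JUNB at 14.7 ± 1.87, and their libraries overlapped. JUN followed at 3.66 ± 0.342 and ATF3, the stress-induced repressor, at 2.52 ± 0.406, an order that turned with the longest transcript as the length (4.08 and 4.79). NR4A1 at 0.883 ± 0.133 and EGR1 at 0.752 ± 0.767 overlapped. FOSB at 0.184 ± 0.0146, FOS at 0.165 ± 0.0102, EGR2 at 0.0521 and EGR3 at 0.0192 closed the order. In all, 2 of 10 members exceeded 5 CPM per kilobase.

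In mouse control T cells the means of the same genes, ATF3 apart, stood higher on the per-kilobase scale, with 7 of 10 above 5. The tables were normalised separately, and species, annotation and cells all differ. Jund led at 142 ± 36.9 (SD, n = 3), followed by Junb at 113 ± 81.9, and their libraries overlapped. Fos at 21.9 ± 19.6, Nr4a1 at 17.4 ± 10.1, Egr1 at 16.6 ± 6.07, Jun at 11.5 ± 15.3 and Egr2 at 5.79 ± 2.54 formed a run in which every neighbour overlapped. Egr3 at 1.98 ± 0.225 overlapped Fosb at 1.94 ± 2.14, and Atf3 was last at 0.183 ± 0.0866. With the longest transcript, Junb passed Jund (143 and 142) and Fosb passed Egr3 (3.21 and 2.21). ATF3 was thus the sole member whose level per kilobase was higher in J.gamma1 than in the mouse controls.

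**Figure D1:**
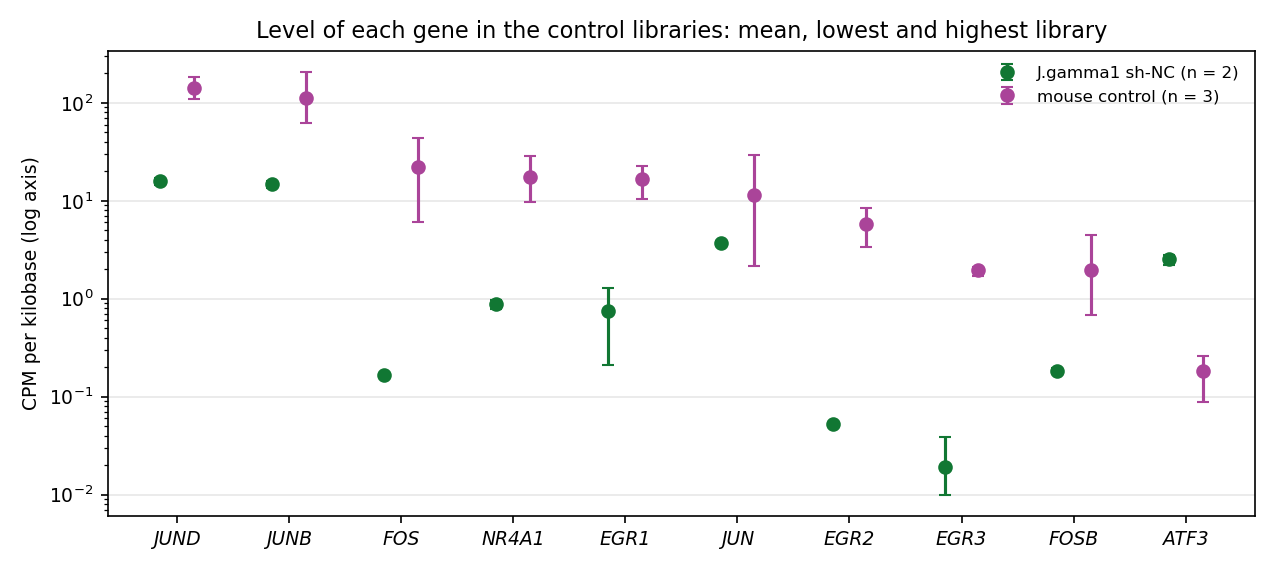
Level of each member in control libraries, as CPM per kilobase of exon on a log axis, with the mean as a point and the lowest and highest library as bars (J.gamma1 sh-NC, n = 2, green; mouse control, n = 3, purple). The lower bar of EGR3 in J.gamma1 is cut at the bottom of the scale because 1 library had 0 counts, and JUND and JUNB lead in both tables.

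In J.gamma1 cells IRF2BP2 knockdown was accompanied by higher FOS, JUN and JUND, while JUNB, FOSB, ATF3, EGR1 and NR4A1 did not pass the test. Of the 10 members, 8 passed the filter on low counts, 3 were called higher (5.46% of 15819 genes tested were) and 0 lower (5.01% were). Genes were called where the adjusted p was under 0.05 and the log2 fold change reached 0.5 in either direction. The median log2 fold change of the 8 was 0.56, against 0.01 over all genes tested.

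FOS (ENSG00000170345, chr14:75278826-75282230), the partner that JUN needs for the most active AP-1 dimer, had 13 and 17 counts in sh-NC and 39 and 104 in sh-IRF2BP2. On the CPM scale these were 0.502 and 0.548 against 1.34 and 3.53. Both knockdown libraries were above both controls, and the knockdown libraries differed 2.63-fold from each other. The log2 fold change was 2.20 ± 0.55 (SE), with an adjusted p of 0.0428 in the quasi-likelihood test of edgeR, adjusted by Benjamini-Hochberg. JUN (ENSG00000177606, chr1:58776845-58784048), the central AP-1 subunit, stood at 12.4 and 14.2 CPM in sh-NC and at 23.7 and 29.7 CPM in sh-IRF2BP2. The groups did not overlap, and the log2 fold change was 1.01 ± 0.18 (SE, adjusted p = 0.0126 by edgeR's quasi-likelihood test). JUND (ENSG00000130522, chr19:18279694-18281622) stood at 28.2 and 33.1 CPM against 47.7 and 44.6 CPM. This smaller rise of 0.59 ± 0.14 on the log2 scale had an adjusted p of 0.0339 in edgeR's test. Without sh-IRF2BP2 replicate 2 none of the 3 was called, with log2 fold changes of 1.34 for FOS, 0.83 for JUN and 0.64 for JUND and adjusted p of 0.316, 0.0607 and 0.0763 in edgeR's test. That fit leaves 1 knockdown library, assumed to vary like the controls. With any 1 library left out JUN stayed between 0.83 and 1.14 on the log2 scale. JUND was also lost without sh-NC replicate 1 (log2 fold change 0.48) and without sh-IRF2BP2 replicate 1 (adjusted p = 0.184, edgeR).

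JUNB, which often opposes JUN in growth control, stood at 29.3 and 24.4 CPM in sh-NC and at 24.9 and 23.0 CPM in sh-IRF2BP2. Its libraries overlapped, and the log2 fold change was -0.16 ± 0.15 (SE). The quotient of JUNB over JUND in CPM was 1.04 and 0.738 in sh-NC and 0.522 and 0.515 in sh-IRF2BP2. FOSB, a FOS relative, stood at 1.08 and 0.967 CPM against 1.20 and 1.76 CPM, and its log2 fold change of 0.53 had an adjusted p of 0.458 in edgeR's test. ATF3 stood at 8.92 and 11.2 CPM against 7.49 and 7.23 CPM. It was the single member whose knockdown libraries both lay below both controls (28.7% of genes tested did), but its log2 fold change of -0.45 ± 0.22 (SE) did not pass, with an adjusted p of 0.219 in edgeR's test. Of the 8 members tested, 5 had both knockdown libraries above both controls, as did 29.6% of all genes tested.

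**Figure D2:**
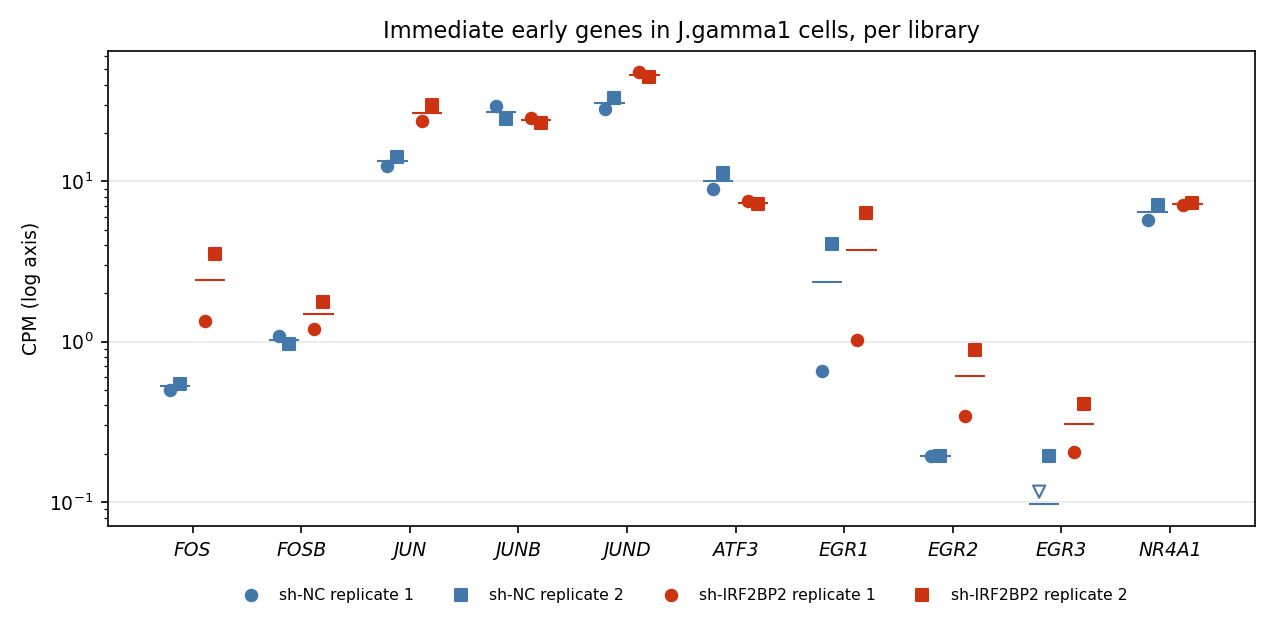
CPM of the 10 members in each J.gamma1 library on a log axis (blue, sh-NC; red, sh-IRF2BP2; circles, replicate 1; squares, replicate 2), with the group mean as a line. The open triangle marks the library of EGR3 with 0 counts, placed at the level of 3 counts. FOS, JUN and JUND, the called genes, separate by group. So do FOSB, EGR2, EGR3 and NR4A1 upward and ATF3 downward, none of which was called. EGR1 spreads mostly by replicate number.

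Among the zinc finger genes, EGR1 differed more between replicate numbers than between groups. It stood at 0.657 and 4.06 CPM in sh-NC and at 1.03 and 6.38 CPM in sh-IRF2BP2, so that replicate 2 exceeded replicate 1 by 6.19-fold in each group. Within each number the knockdown library was 1.57-fold above its control. The log2 fold change of 0.63 ± 0.90 (SE, adjusted p = 0.695, edgeR) turned to -0.14 without sh-NC replicate 1 and to -1.21 without sh-IRF2BP2 replicate 2. DDIT4, a stress gene chosen after its values were seen, had the same order, at 44.1 and 133 CPM in sh-NC and 64.5 and 196 CPM in sh-IRF2BP2. What the libraries of 1 number share is not given by the labels. EGR2 and EGR3, which restrain T cell activation, were under the filter on low counts. EGR2 had 5 and 6 counts against 10 and 26, a ratio of 3.18 over the groups (exact 95% counting interval 1.58 to 6.92). EGR3 had 0 and 6 counts against 6 and 12, a ratio of 2.91 (1.11 to 8.97). These intervals cover counting error only. With every gene of at least 1 count included, edgeR's adjusted p was 0.317 for EGR2 and 0.602 for EGR3. NR4A1 stood at 5.75 and 7.12 CPM against 7.14 and 7.33 CPM, with a log2 fold change of 0.17 ± 0.23 (SE, adjusted p = 0.684, edgeR). Its knockdown libraries lay just above both controls.

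In mouse T cells no member was called in either direction, and the AP-1 genes varied more inside each group than most genes did. All 10 members were tested, with 0 called higher (2.4% of 15361 genes tested were) and 0 lower (0.124% were), the fold threshold here being 1 on the log2 scale. At an unadjusted p under 0.05, 1 member, Atf3, was higher in edgeR's test (9.82% of genes were) and 0 were lower (7.05% were), and DESeq2 called 1, again Atf3. The median log2 fold change of the 10 was 0.49, against -0.04 over all genes tested.

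Fos (ENSMUSG00000021250, GRCm38 chr12:85473890-85477273) stood at 14.2, 37.6 and 103 CPM in control 1, 2 and 3 and at 71.1 and 250 CPM in KO 1 and 2. Control 3 lay above KO 1, so the groups overlapped, and the log2 fold change of 1.65 ± 0.81 (SE) had an adjusted p of 0.382 in edgeR's test. Fosb stood at 4.58, 4.22 and 27.6 CPM in the controls and at 17.2 and 91.9 CPM in the KO. Its log2 fold change was 2.21 ± 0.98 (SE, adjusted p = 0.321, edgeR). Jun stood at 6.89, 10.4 and 93.0 CPM against 45.9 and 243 CPM, with a log2 fold change of 2.0 ± 1.16 (SE, adjusted p = 0.461, edgeR). Junb stood at 142, 159 and 476 CPM against 198 and 764 CPM, and its log2 fold change was 0.89 ± 0.69 (SE, adjusted p = 0.583, edgeR). In all 4 of these genes KO 2 was highest, control 3 next, KO 1 between, and control 1 and 2 lowest. Within the controls, the highest library exceeded the lowest 13.5-fold for Jun, a ratio larger than in 99.7% of the 10318 genes compared, and 7.28-fold for Fos (99.2%).

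Control 3 had the fewest counts of the mouse libraries, and 1 library decided much of each difference. Without control 3 the log2 fold change was 4.07 for Jun (adjusted p = 0.0604), 3.64 for Fosb (0.0707) and 2.64 for Fos (0.11) in edgeR's test. Without KO 2 it was 0.34 for Jun, 0.52 for Fosb, 0.47 for Fos and -0.39 for Junb. The summed level of 15 heat shock and stress genes was 4389, 8507 and 7927 CPM in the controls and 6851 and 8694 CPM in the KO, lowest in control 1. Hspa1a, an inducible HSP70 gene named after its values were seen, stood at 0.0814, 2.25 and 14.2 CPM against 14.6 and 7.14 CPM. The erythroid markers were lowest in control 3, at 681 CPM, where the 4 AP-1 genes were second highest, and highest in KO 2, at 6443 CPM. The 7 B cell markers summed to 152, 259 and 36.3 CPM in the controls and to 106 and 39.1 CPM in the KO. The 10 myeloid markers summed to 175, 407 and 49.7 CPM against 145 and 100 CPM. The B cell and myeloid sums were lowest in control 3 and KO 2, the libraries highest in the 4 AP-1 genes. The NK and plasma cell lists did not share this order. The 4 NK markers summed to 164.8, 140.5 and 87.2 CPM in the controls and to 83.5 and 182 CPM in the KO, highest in KO 2. The 5 plasma cell markers summed to 1155, 413 and 538 CPM against 1480 and 1124 CPM. The part of any of these lists in the AP-1 values was not tested.

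**Figure D3:**
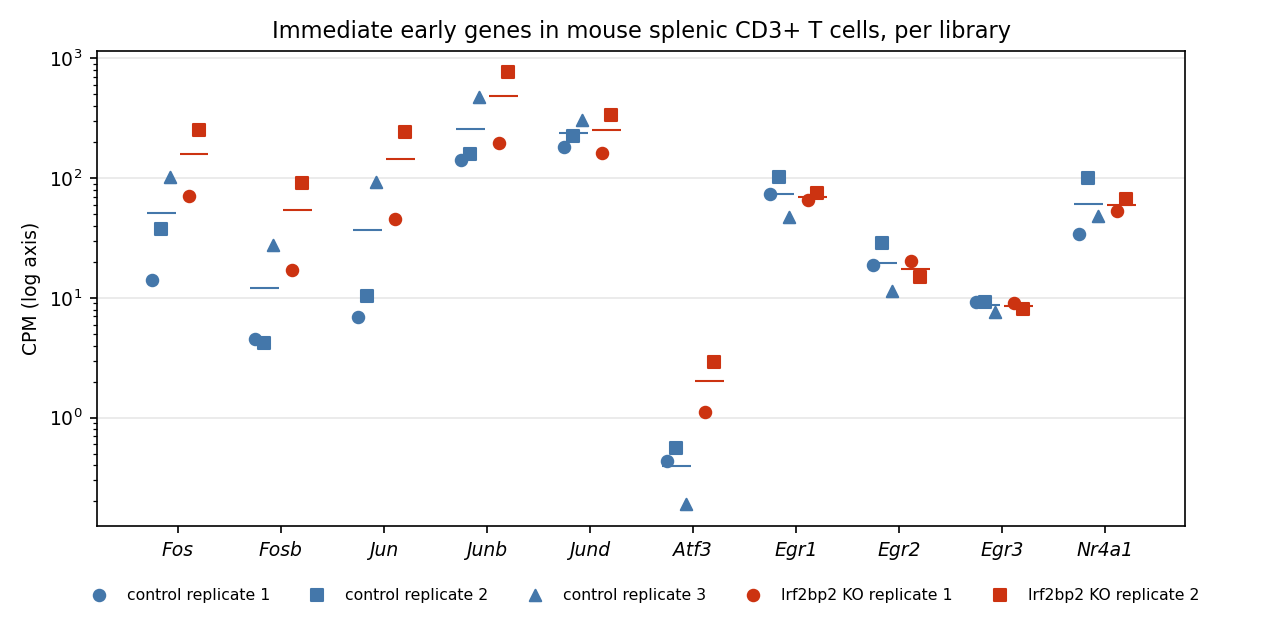
CPM of the 10 members in each mouse library on a log axis (blue, control; red, Irf2bp2 KO; circles, squares and triangles, replicates 1, 2 and 3), with the group mean as a line. Control 3 reaches 93.0 CPM for Jun and lies above KO 1 at 45.9 CPM, and Egr1 is lowest in control 3 at 47.1 CPM.

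Jund, the less inducible JUN gene, stood at 183, 225 and 304 CPM in the controls and at 163 and 338 CPM in the KO, and its log2 fold change was 0.08 ± 0.34 (SE). Atf3 was low, with 16, 20 and 3 counts in the controls and 43 and 105 in the KO. On the CPM scale these were 0.434, 0.556 and 0.189 against 1.11 and 2.93. It was the single member whose KO libraries both exceeded every control (17.1% of genes tested did so), and 0 members had both KO libraries under every control (19.9% did). Its log2 fold change of 2.29 ± 0.62 (SE) had an adjusted p of 0.131 in edgeR's test and of 0.0446 in DESeq2.

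The EGR genes and Nr4a1 did not share the order of libraries seen for Fos and Jun. Egr1 stood at 74.4, 102 and 47.1 CPM in the controls and at 65.6 and 74.9 CPM in the KO, lowest in control 3, where Jun was at its highest among the controls. Egr2 stood at 19.0, 28.6 and 11.4 CPM against 20.4 and 14.9 CPM. Egr3 stood at 9.33, 9.25 and 7.57 CPM against 9.12 and 8.04 CPM, and its ratio of the highest to the lowest control was 1.23, larger than in 34.2% of genes. The same ratio was 2.16 for Egr1 (91.6%), 2.51 for Egr2 (94.3%) and 2.95 for Nr4a1 (95.8%). Nr4a1 stood at 34.2, 101 and 47.9 CPM against 53.0 and 66.5 CPM. The log2 fold changes of these 4 genes were -0.08 ± 0.30, -0.17 ± 0.38, -0.03 ± 0.23 and -0.03 ± 0.43 (SE), all with overlapping groups. Jun divided by Egr1 in CPM was 0.0926 and 0.103 in control 1 and 2, 1.98 in control 3, 0.699 in KO 1 and 3.25 in KO 2.

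**Figure D4:**
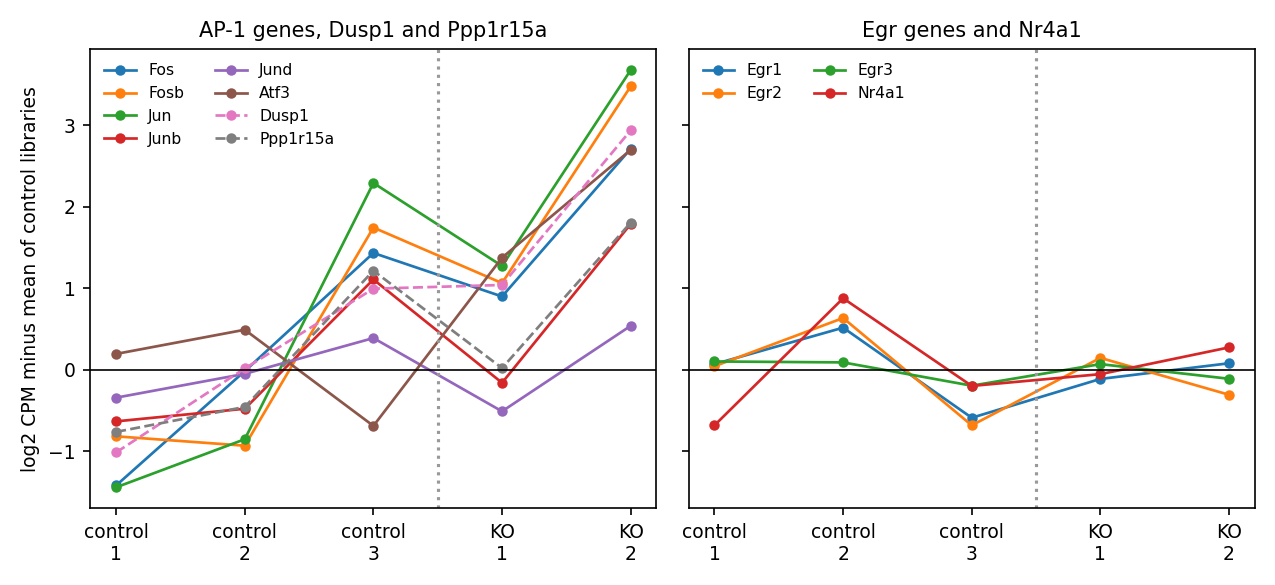
Log2 CPM of mouse genes in each library minus the mean of the 3 controls, for the AP-1 genes with Dusp1 and Ppp1r15a (left) and for the Egr genes and Nr4a1 (right). Lines join the values of 1 gene and imply no order of libraries. Fos, Fosb, Jun and Junb are raised in control 3 and KO 2, with KO 1 also above the control mean for Fos (0.90), Fosb (1.07) and Jun (1.28), and the genes on the right do not follow this order.

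**Figure D5:**
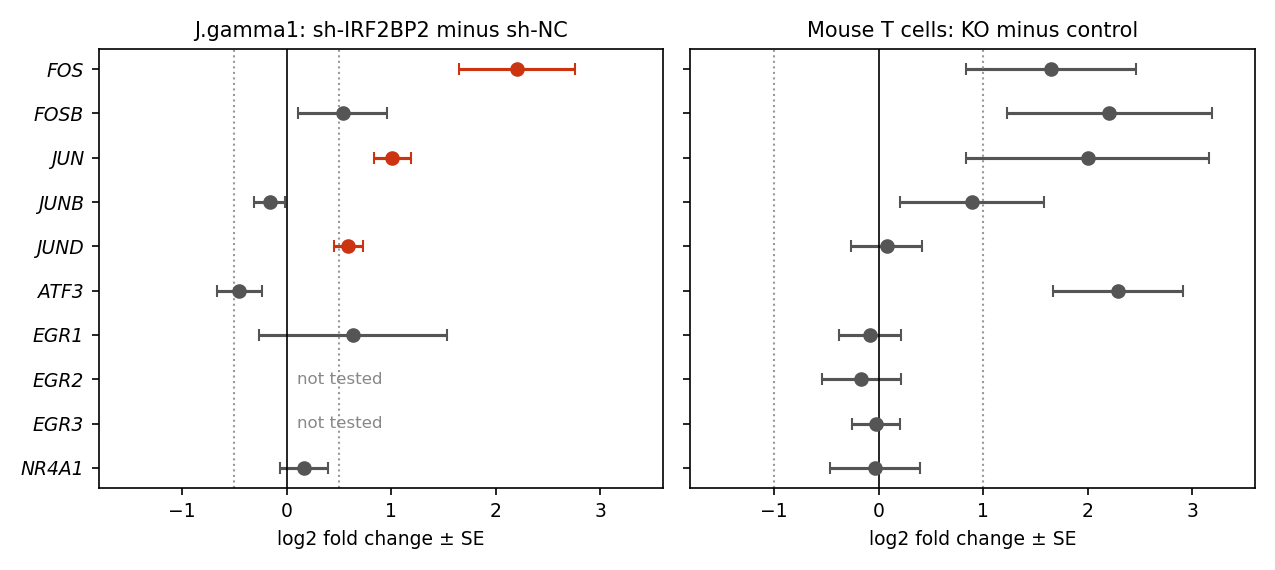
Log2 fold change with its SE, derived from the test statistic, for each member in J.gamma1 (sh-IRF2BP2 minus sh-NC, left) and mouse T cells (KO minus control, right). Red marks called genes, dotted lines mark the fold threshold, and FOS, JUN and JUND are called in J.gamma1 with none called in the mouse.

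Genes whose library pattern was most like that of FOS or Fos were ranked by the root-mean-square difference of centred log2 CPM. Over the 4 J.gamma1 libraries and 10919 genes, the nearest were KDM6B, TP53INP1 and RGS3, at 0.313 to 0.323, none of them a member. Only genes of a mean of at least 5 CPM were ranked, so FOSB, EGR1, EGR2 and EGR3 could not appear. FOS itself, below that level, was kept as the reference, and JUN was at rank 59. Over the 5 mouse libraries and 10325 genes, the nearest were Dusp1 at 0.284, Ppp1r15a at 0.571 and Fosb at 0.590. Dusp1, a MAP kinase phosphatase that is itself an immediate early gene, stood at 19.3, 39.6 and 78.2 CPM in the controls and at 80.7 and 301 CPM in the KO. Its log2 fold change of 2.07 had an adjusted p of 0.201 in edgeR's test.

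The gene lists from here on were chosen with earlier results of these data known. Their counts beside the shares of all genes are therefore descriptive. Of the other AP-1 and MAF genes, 12 were tested in J.gamma1, with a median log2 fold change of 0.00. Of these, 2 were called higher and 1 lower, against 5.46% and 5.01% of all genes. The count of 2 includes MAF, which passed the filter through the knockdown libraries alone. That count was 1 with at least 10 counts in every library, with at least 1 count in any library, and with rows outside the annotation. MAF, a transcription factor of helper T cells, had 11 counts over the sh-NC libraries and 649 over the sh-IRF2BP2 libraries, a ratio of 57.3 (exact 95% counting interval 31.8 to 115). MAFK fell by 0.98 and ATF7 rose by 0.71 on the log2 scale (adjusted p = 0.00345 and 0.0462, edgeR). In the mouse, 1 of 12 was called, Maf (2.52% of all genes were called). It stood at 44.5, 38.5 and 38.9 CPM in the controls and 73.8 and 90.5 CPM in the KO (log2 fold change 1.01 ± 0.14, adjusted p = 0.0211, edgeR). Of the other EGR and NR4A genes with their NAB corepressors, 0 of 3 tested were called in J.gamma1 (10.5% of all genes were). In the mouse 0 of 4 were called (2.52% of all genes were). All had an adjusted p at or above 0.202 in edgeR's test. The mouse log2 fold changes were -0.18 for Nab1, -0.46 for Nab2, -0.37 for Nr4a3 and 1.39 for Nr4a2. Thus 3 were negative and 1 was positive, with a median of -0.28. Nr4a2 stood at 1.41, 3.53 and 3.47 CPM in the controls and 5.76 and 8.85 CPM in the KO.

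Of 32 other immediate early genes tested in J.gamma1, 2 were called higher and 3 lower, near the 5.46% and 5.01% of all genes, with a median of 0.05. With 1 library left out each count lay between 1 and 4. ARC rose by 1.45 and KLF2, a quiescence factor, by 1.16 on the log2 scale, whereas RGS2 fell by 1.21 and MCL1, a survival factor, by 0.80 (adjusted p between 0.00587 and 0.0487, edgeR). In the mouse, 1 of 34 was called (2.52% of all genes were), Rgs1, a regulator of G protein signalling. It stood at 26.0, 28.4 and 34.9 CPM against 72.2 and 162 CPM (log2 fold change 1.98, adjusted p = 0.0321, edgeR). Neither Rgs1 nor Maf was called without control 1 or without KO 2, and Maf was also lost without KO 1.

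Of the genes upstream of the members, from the antigen receptor to SRF, CREB and the MAP kinases, 37 were tested in J.gamma1. Among them 10 were called higher and 2 lower, against 5.46% and 5.01% of all genes, and the median log2 fold change was 0.30. SRF, which binds the CArG box, stood at 103 and 92.0 CPM in sh-NC and at 160 and 130 CPM in sh-IRF2BP2 (log2 fold change 0.57, adjusted p = 0.0405, edgeR). It is named here because of the motif and not by its rank. Of the called members, FOS held a CArG box in its window, and JUN and JUND did not. FOSB and EGR1 held CArG boxes and were not called. A link between SRF and the members was not tested. ELK3, an SRF partner, rose by 1.00 and the adaptor LAT by 0.79, while RASGRP1, which links diacylglycerol to Ras, fell by 0.96 and ATF1, a CREB relative, by 0.78 on the log2 scale (adjusted p between 0.00577 and 0.0196, edgeR). PLCG1 mRNA stood at 265 and 256 CPM against 316 and 346 CPM, without passing the test (adjusted p = 0.114, edgeR). The number of these genes called higher was 2 without sh-IRF2BP2 replicate 1, 6 without replicate 2, 15 without sh-NC replicate 1 and 7 without replicate 2. In the mouse, 0 of 38 were called (2.52% of all genes were) and the median was -0.12.

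Several genes of T cell activation carry AP-1 sites in textbook accounts. Of 14 activation genes tested in J.gamma1, 5 were called higher (5.46% of all genes were) and 0 lower (5.01% were). This count includes IL2RA and IFNG, which passed the filter through the knockdown libraries alone, and it was 3 with at least 10 counts in every library and 3 without sh-IRF2BP2 replicate 2. IL2RA, the high-affinity IL-2 receptor chain, had 4 counts over sh-NC and 151 over sh-IRF2BP2, a ratio of 36.7 (14.0 to 136). IFNG had 0 counts in both controls and 25 over the knockdown libraries, which is 8.1-fold against the limit of 3 counts over the group, and the exact 95% counting interval of the ratio starts at 6.11. CD40LG rose by 1.58 and REL by 0.85 on the log2 scale (adjusted p = 0.00114 and 0.0428, edgeR). In the mouse, 3 of 24 were called higher (2.4% of all genes were). They were the inhibitory receptors Tigit (2.46) and Lag3 (1.81) and the anergy ligase Rnf128 (2.80 on the log2 scale, adjusted p between 0.0108 and 0.0237, edgeR). The count of 3 became 0 without control 1 or KO 2 and 1 without KO 1. Of the heat shock and stress genes, 0 of 14 were called higher and 1 lower in J.gamma1, against 5.46% and 5.01% of all genes. The 1 called lower was HSP90AB1, which fell by 0.64 (adjusted p = 0.0462, edgeR). In the mouse 0 of 15 were called (2.52% of all genes were).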

How the data were processed

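RNA-seq was read from 9 libraries in 2 tables, 4 of J.gamma1 and 5 of mouse splenic CD3+ T cells, and groups were taken from the labels. The authors deposited raw counts as whole numbers per Ensembl gene, made with HISAT2 2.2.0 and StringTie on hg38 and mm10 per the submitters' processing notes. How coverage became counts, and whether strand was used, is not given in the sources used here. Rows were restricted to identifiers in GENCODE 44 or M21, which held 97.9% or more of the counts. After filterByExpr and TMM scaling, each table was tested by itself with the quasi-likelihood functions glmQLFit and glmQLFTest of edgeR 4.0.16 (R 4.3.3), with Benjamini-Hochberg adjustment over all genes tested. Genes were called where the adjusted p was under 0.05 and the log2 fold change reached 0.5 (J.gamma1) or 1 (mouse) in either direction. The SE of a log2 fold change was derived from the test, as its size divided by the square root of the F statistic. Replicates were not duplicates, since the lowest chi-square per gene between them was 20.0.

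The members and the gene lists were chosen with earlier results of these data known, so their counts beside the shares of all genes are descriptive. All members are named. In each list up to 4 genes per table are named, called genes by size first and then by mean CPM. The 3 genes most like FOS or Fos were taken among genes of at least 5 CPM, after adding 0.1 to CPM before the log. Other genes are said to be named after their values were seen, and 1 gene that met the rule is not reported here. Alternatives were upper-quartile and RLE scaling, DESeq2 1.42.0, filters of 10 counts in every or 1 in any library, counts divided by 2, rows outside the annotation, other fold thresholds, a replicate block, each library left out, and the longest transcript. The scripts were tested on simulated data. Sequences came from hg38 and from RefSeq (GRCm38.p6) and were scanned in Python 3.11.15, and plots were drawn with matplotlib 3.10.9.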

Additional observations from a re-analysis of the deposited data

Results flagged for a closer look

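The libraries of ATF3 lay apart in opposite directions in the tables, without passing the test in either (adjusted p = 0.219 in J.gamma1 and 0.131 in the mouse, edgeR). Both knockdown libraries of J.gamma1 lay below both controls (log2 fold change -0.45), while both KO libraries of the mouse lay above all 3 controls (2.29). Among the other genes chosen by the naming rule, the log2 fold changes in J.gamma1 and the mouse were 1.00 and -0.24 for ELK3, 0.79 and -0.57 for LAT, 0.33 and -0.34 for CD5, and -0.40 and 0.66 for HSP90AA1. Of these values, those of ELK3 and LAT in J.gamma1 passed edgeR's test (adjusted p = 0.0196 and 0.00843), and the others had an adjusted p of 0.173 to 0.434. These differences between the tables were not tested. No group held enough libraries for a search for single outlying samples.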

How the results depend on the processing

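In J.gamma1, 3 members were called higher, 1 with at least 1 count in any library as the filter, and 0 to 3 when 1 library was left out. In the mouse, where 0 were called, DESeq2 called 1 and the replicate block 2. Across the alternatives of single members, 102 of 112 values in J.gamma1 and 129 of 149 in the mouse kept their direction and their side of the threshold. With 1 library left out, log2 fold changes changed sign for EGR1 (-1.21 to 2.49) in J.gamma1 and for Junb (-0.39 to 1.69), Jund (-0.54 to 0.51), Egr1 (-0.31 to 0.24), Egr2 (-0.42 to 0.24), Egr3 (-0.12 to 0.064) and Nr4a1 (-0.30 to 0.59) in the mouse. Egr3 was 0.00083 with RLE scaling, 0.0027 with upper-quartile scaling and 0.042 with at least 10 counts in every library, where Nr4a1 was 0.034. Over all mouse genes, 6 to 532 were called higher when 1 library was left out. The causes were not tested.

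The libraries share replicate numbers, but nothing says that a number marks a shared animal, culture or day. Deviations of same-numbered libraries correlated at 0.333 in J.gamma1 and 0.0643 in the mouse, over 1 comparison of differences each. The replicate block left the 3 calls in J.gamma1 in number. In the mouse it called Fos (log2 fold change 2.53, adjusted p = 0.00455, edgeR) and Jun (3.66, adjusted p = 0.0214, edgeR), and Nr4a1 was at 0.0087, but control 3 has no KO partner of its number and adds nothing to that difference. Depth limits EGR2, EGR3 and FOS in J.gamma1 and Atf3 in the mouse, which rest on few reads.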
